A study of Mus musculus with 18 samples.

Results

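Prostaglandins and leukotrienes are signalling lipids made from arachidonic acid. Cyclooxygenases turn arachidonate into prostaglandin H2, which terminal synthases convert into the individual prostanoids, and 15-hydroxyprostaglandin dehydrogenase starts their breakdown. In the other branch, 5-lipoxygenase and its activating protein make leukotriene A4, which a hydrolase turns into leukotriene B4, an attractant of neutrophils, and a glutathione-conjugating synthase into leukotriene C4. Neutrophils, macrophages and mast cells are well-known users of these branches, and myeloid cells switch many of the enzymes on as they mature.

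The 10 enzyme genes of these pathways described here were taken by name from a table of 23418 genes, and all 10 were present: Hpgd, Ptgs1, Ptgs2, Hpgds and Ptges of the prostaglandin branch, and Alox5, Alox5ap, Alox15, Lta4h and Ltc4s of the lipoxygenase branch. The cells were C57BL/6 mouse leukemia cells carrying 1 of 3 transforming fusions, MLL-AF9, MLL-AF6 or MLL-AF1p. MI-2-2, a compound that blocks binding of menin to MLL, was given at 6 µM to 1 arm of each construct, and the control arm got DMSO at 0.25%. Both arms were kept for 6 days, with fresh medium on day 3. The 6 groups had 3 libraries each, 18 in all. The labels do not say whether the libraries of a group came from separate cultures or how many transformed lines stand behind a construct, so p-values measure the spread between these libraries.

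Values are the authors' RPKM, reads per kilobase of gene and per 1000000 counted reads. They scale for gene length and depth, but not for a shift in the make-up of the RNA between libraries. Median centring and quantile normalization were run as alternatives. Depth ran from 21.2 to 56.3 M counted reads per library, and the MLL-AF1p libraries were the deepest. The question asked was how each enzyme gene responded to MI-2-2 in each construct, and whether the constructs differed. Tests were made with limma on log2(RPKM + 0.5) across 11238 genes that reached 1 RPKM in at least 3 of the 18 libraries, with Benjamini-Hochberg adjustment over all of them. "Rose" and "fell" are kept for genes with an adjusted p below 0.05. Of the 10 genes, 8 passed that filter, while Ptgs2 and Alox15 did not. In bulk RNA, fewer cells of a type and less RNA per cell cannot be told apart.

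The cells expressed genes of myeloid blood cells: all 5 of Ptprc, Sfpi1, Cebpa, Csf3r and Itgam were present, at 294 to 631 RPKM summed per library. Csf3r was low in the MLL-AF9 DMSO libraries, at 0.459 to 2.39 RPKM. In each construct the mean of Cebpa was lower with MI-2-2 and the means of Itgam and Csf3r were higher. In MLL-AF9, Cebpa went from 119 to 37.0 RPKM and Itgam from 31.9 to 148 RPKM. The fusion targets Hoxa9, Hoxa10 and Meis1, summed, lay at 72.6 to 192 RPKM in the DMSO libraries and at 48.8 to 83.6 RPKM in the MI-2-2 libraries. Markers of maturing myeloid cells moved with treatment. Summed over 7 macrophage genes, the MLL-AF9 libraries held 98.5 to 132 RPKM under DMSO and 1027 to 1243 RPKM with MI-2-2, MLL-AF6 held 121 to 145 RPKM and 1714 to 2216 RPKM, and MLL-AF1p held 58.7 to 59.6 RPKM and 340 to 381 RPKM. The macrophage gene C1qa was at or near 0 in all 18 libraries, at most 0.0435 RPKM. Summed over the 5 neutrophil genes in the table, MLL-AF9 held 63.9 to 192 RPKM under DMSO and 1799 to 2222 RPKM with MI-2-2, MLL-AF6 held 418 to 560.1 RPKM and 2563 to 2946 RPKM, and MLL-AF1p held 636 to 743 RPKM and 5008 to 5280.4 RPKM. Single genes weighed heavily in these sums: Gpnmb was at 1080 to 1463 RPKM in treated MLL-AF6 libraries and Ngp at 3623 to 3867 RPKM in treated MLL-AF1p. The part of the marker changes in the results below was not tested.

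Promoter sequences are shown for the 4 genes on which the results turn: the falling dehydrogenase gene Hpgd, the synthase gene Hpgds that rose most in MLL-AF6, the lipoxygenase gene Alox5 whose response was largest in MLL-AF9, and the synthase gene Ltc4s that rose in MLL-AF6 alone. They are the 250 bases before the annotated start, from RefSeq on GRCm38.p6, a later build than the mm9 of the submitters' processing notes, written 5′ to 3′ on the gene's strand. Capitals mark matches to any of 8 short motifs searched on both strands: GAGGAA (the ETS factor PU.1), TTGCNNAA (C/EBP), TGANTCA (AP-1), TATAAA (the TATA box), CCAAT (bound by NF-Y), GGGCGG (Sp1), TGACAG (MEIS) and TGATNNAT (PBX-HOX). None of the 8 motifs overlaps another in these 4 windows. Hpgd lies on the plus strand at chr8:56294302-56294551, Hpgds on the minus strand at chr6:65144731-65144980, Alox5 on the minus strand at chr6:116461179-116461428 and Ltc4s on the minus strand at chr11:50238533-50238782.
Hpgd: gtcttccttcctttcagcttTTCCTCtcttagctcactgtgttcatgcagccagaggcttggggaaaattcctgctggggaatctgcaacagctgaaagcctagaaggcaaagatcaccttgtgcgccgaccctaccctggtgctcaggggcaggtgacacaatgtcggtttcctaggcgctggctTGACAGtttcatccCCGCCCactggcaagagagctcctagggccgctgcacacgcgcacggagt
Hpgds: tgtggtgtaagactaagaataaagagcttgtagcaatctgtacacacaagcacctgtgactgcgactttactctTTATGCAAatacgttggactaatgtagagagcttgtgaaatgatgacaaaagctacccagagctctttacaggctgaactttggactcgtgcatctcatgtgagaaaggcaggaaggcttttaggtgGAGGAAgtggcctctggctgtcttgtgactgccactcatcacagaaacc
Alox5: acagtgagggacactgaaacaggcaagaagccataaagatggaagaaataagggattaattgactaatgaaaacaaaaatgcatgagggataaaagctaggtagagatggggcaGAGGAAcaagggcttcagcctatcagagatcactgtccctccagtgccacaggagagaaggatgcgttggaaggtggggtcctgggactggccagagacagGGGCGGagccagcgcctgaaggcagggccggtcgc
Ltc4s: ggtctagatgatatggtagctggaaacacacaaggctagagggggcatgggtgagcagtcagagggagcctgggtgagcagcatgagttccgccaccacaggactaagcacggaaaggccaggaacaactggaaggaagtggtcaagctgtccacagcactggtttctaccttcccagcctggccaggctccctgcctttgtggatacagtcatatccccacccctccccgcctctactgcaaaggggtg

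In the Hpgd promoter the marked matches were, from the 5′ end, a PU.1 motif on the other strand, a MEIS motif, and an Sp1 motif on the other strand. Hpgds held a C/EBP motif on the other strand and a PU.1 motif 49 bases before the start, Alox5 held a PU.1 and an Sp1 motif, and the Ltc4s window held none of the 8 motifs. Of the 8 enzyme genes with a promoter in the table, 7 held the PU.1 motif on either strand (Hpgd, Ptgs1, Ptgs2, Hpgds, Ptges, Alox5 and Lta4h), beside 23.3% of all 32851 promoters. The MEIS motif was in Hpgd alone of the 8, beside 15.9% of all promoters, and the C/EBP motif in Ptgs2 and Hpgds, beside 9.56%. The Sp1 motif was in Hpgd, Ptgs2, Ptges and Alox5, beside 32.7%, and the NF-Y motif in Lta4h, beside 33.8%. The AP-1, TATA box and PBX-HOX motifs were in none of the 8, beside 6.75%, 12.4% and 7.68% of all promoters. These are matches of letters in a window, not measured binding sites. Alox5ap and Alox15 were not matched to a promoter.

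In the prostaglandin branch the gene of the breakdown enzyme, Hpgd, fell and those of the synthetic enzymes Ptgs1, Hpgds and Ptges rose in all 3 constructs. In the leukotriene branch Alox5ap rose in all 3, while Alox5, Lta4h and Ltc4s each changed in 1 construct. Of the 8 tested enzyme genes, 5 rose and 1 fell with MI-2-2 in MLL-AF9, where 56.4% of all genes tested changed in either direction, 28.5% upward and 27.9% downward. In MLL-AF6, 5 rose and 2 fell, beside 57.0% of all genes, 18% upward (2025 of 11238) and 38.9% downward. In MLL-AF1p, 4 rose and 1 fell, beside 45.4% of all genes, 19.1% upward and 26.3% downward. The median log2 fold change of the 8 genes was 0.76, 0.30 and 0.28 in MLL-AF9, MLL-AF6 and MLL-AF1p, beside 0.00, -0.16 and -0.06 over all genes tested. Changes were this common in every construct, so the counts by themselves say little about these 8 genes. Hpgds reached 1 RPKM only in the 9 MI-2-2 libraries, so it passed the filter only through the groups where it was high. Its part in the counts here and below was thus largely set by the filter. With each library centred on its median, the split over all genes in MLL-AF6 moved from 2025 higher and 4377 lower to 2441 higher and 3384 lower. The plot of levels by library shows the 10 genes one by one.

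**Figure D1:**
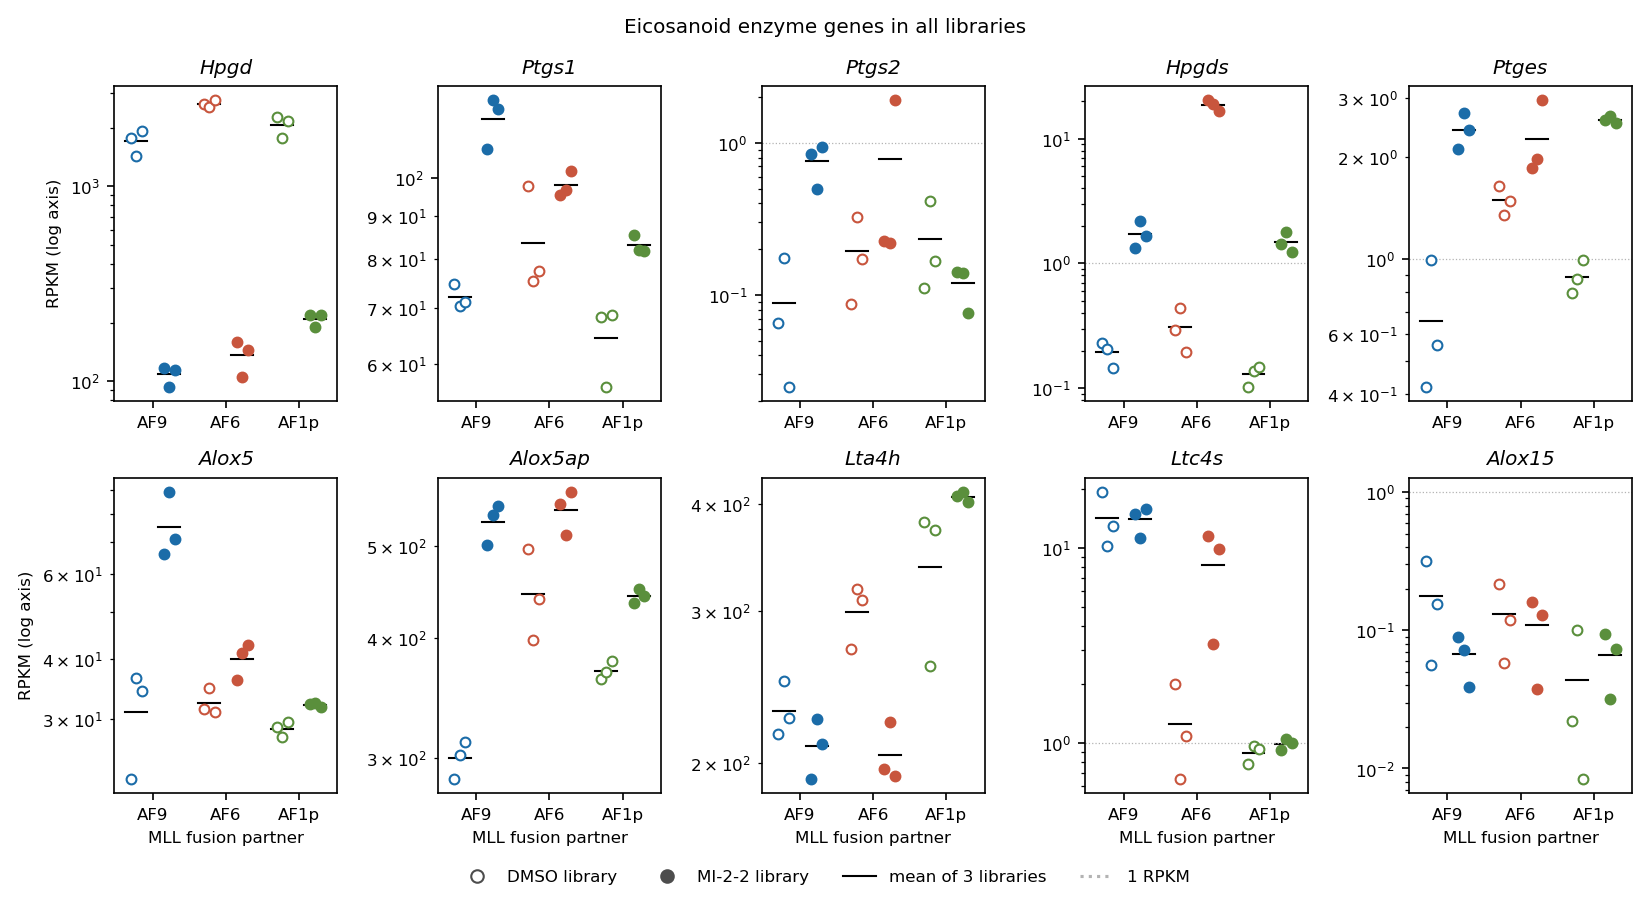
Level of each enzyme gene in RPKM (log axis, a separate scale per gene) by fusion partner, with open points for the 3 DMSO libraries, filled points for the 3 MI-2-2 libraries and a line at their mean; the dotted line marks 1 RPKM where it falls in the range. The Hpgd points fall in all 3 constructs, the Hpgds points rise furthest in MLL-AF6, and Ltc4s under DMSO is 10.2 to 19.4 RPKM in MLL-AF9 and at most 2.01 RPKM in the other constructs.

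Hpgd encodes 15-hydroxyprostaglandin dehydrogenase, the enzyme that oxidises and so inactivates prostaglandin E2 and related prostanoids. It was among the most abundant transcripts of the untreated cells and fell with MI-2-2 in every construct. In MLL-AF9, DMSO libraries 1 to 3 held 1773, 1431 and 1926 RPKM, and MI-2-2 libraries 117, 93.6 and 114 RPKM. The MLL-AF6 libraries held 2637, 2563 and 2765 RPKM under DMSO against 160.1, 106 and 145 RPKM. The MLL-AF1p libraries held 2269, 1765 and 2179 RPKM under DMSO against 219, 189.7 and 218 RPKM. The 9 untreated libraries thus lay far above the 9 treated ones, with no overlap. The fall was 15.7-fold in MLL-AF9 (95% interval of the log2 fold change -4.28 to -3.66), 19.6-fold in MLL-AF6 (-4.61 to -3.98) and 9.85-fold in MLL-AF1p (-3.61 to -2.99), by limma with adjusted p of 6.79e-12, 1.69e-12 and 1.13e-10.

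By rank of RPKM among the 23418 genes, Hpgd stood at 6 to 7 in the MLL-AF6 DMSO libraries, 12 to 34 in MLL-AF1p and 44 to 74 in MLL-AF9. With MI-2-2 it stood at 418 to 643, 285 to 346 and 582 to 744 in the same order of constructs. Its share of all counted reads went from 0.458% ± 0.0177 to 0.0236% ± 0.00483 in MLL-AF6 (SD, n = 3 each). Hpgd was thus still well expressed after treatment, with 4011 reads in its lowest library. The response of MLL-AF1p was smaller than that of MLL-AF6 by 0.99 ± 0.21 (SE) on the log2 scale (limma, adjusted p = 0.00228) and than that of MLL-AF9 by 0.67 ± 0.21 (adjusted p = 0.0214). The second difference did not pass with quantile normalization (0.32, adjusted p = 0.298), nor without filtering low genes (adjusted p = 0.0594), nor without any 1 of 4 libraries (MLL-AF9 DMSO replicate 3 or MI-2-2 replicate 2, MLL-AF1p DMSO replicate 2 or MI-2-2 replicate 1), with adjusted p of 0.0505 to 0.0578. MLL-AF6 and MLL-AF9 did not differ at the threshold, with a difference of -0.33 and a 95% interval of -0.77 to 0.12, though the difference passed with quantile normalization (-0.97, adjusted p = 0.0052).

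Under DMSO, Hpgd was higher in MLL-AF6 than in MLL-AF9 by 0.65 ± 0.15 (SE, log2; limma, adjusted p = 0.0017). MLL-AF1p lay between them: it was below MLL-AF6 by a narrow margin (-0.37, adjusted p = 0.0475) and did not differ from MLL-AF9 at the threshold (0.28, adjusted p = 0.108). The second difference passed after leaving out MLL-AF1p DMSO replicate 2 (0.39, adjusted p = 0.0443) and under quantile normalization (0.63, adjusted p = 0.00264). The call against MLL-AF6 ended without filtering (adjusted p = 0.119), with a constant prior variance (0.0519) and without any 1 of 11 libraries, with adjusted p of 0.0521 to 0.197. These were MLL-AF6 DMSO replicates 1, 2 and 3 and MI-2-2 replicate 3, MLL-AF1p DMSO replicates 2 and 3 and MI-2-2 replicates 1, 2 and 3, and MLL-AF9 MI-2-2 replicates 1 and 3. The highest adjusted p came without MLL-AF1p DMSO replicate 2 (-0.26).

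Ptgs1 encodes cyclooxygenase-1, the constitutive enzyme of prostanoid synthesis. It was well expressed in all 18 libraries and rose modestly with MI-2-2. In MLL-AF9, DMSO libraries held 74.7, 70.3 and 71.1 RPKM and MI-2-2 libraries 108, 124 and 121 RPKM. In MLL-AF6 the values were 98.0, 75.4 and 77.5 RPKM against 95.4, 96.7 and 102 RPKM, and DMSO replicate 1 overlapped the treated libraries. In MLL-AF1p they were 68.2, 56.3 and 68.6 RPKM against 85.6, 82.0 and 81.8 RPKM. The groups did not overlap in MLL-AF9 and MLL-AF1p. The rise was 1.63-fold in MLL-AF9 and 1.29-fold in MLL-AF1p (limma, adjusted p = 1.15e-05 and 0.00439).

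In MLL-AF6 the rise of Ptgs1 was 1.18-fold (adjusted p = 0.0405), a call that ended without filtering (adjusted p = 0.0854), with only the MLL-AF6 groups in the fit (0.102) and without any 1 of 5 MLL-AF6 libraries, with adjusted p up to 0.167. Without the sixth, MLL-AF6 DMSO replicate 1, it was 0.36 on the log2 scale (adjusted p = 0.00193). The MLL-AF6 response was smaller than that of MLL-AF9 by 0.47 ± 0.13 (SE, log2; limma, adjusted p = 0.0142), which did not pass with median centring (adjusted p = 0.108). Under DMSO, Ptgs1 was lower in MLL-AF1p than in MLL-AF6 (-0.37, adjusted p = 0.00392). Neither differed from MLL-AF9 at the threshold (adjusted p = 0.13 and 0.0783), though each did under some alternatives. The ratio of Hpgd to Ptgs1 in RPKM was 20.4 to 35.7 in the 9 DMSO libraries and 0.756 to 2.67 in the 9 MI-2-2 libraries. It was chosen after the values of both genes were seen.

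Ptgs2 encodes cyclooxygenase-2, the enzyme induced by inflammatory signals. It stayed under the filter, with 3 to 203 reads per library. The MLL-AF9 libraries held 0.0650, 0.175 and 0.0248 RPKM under DMSO and 0.846, 0.499 and 0.943 RPKM with MI-2-2. The MLL-AF6 libraries held 0.0875, 0.323 and 0.172 RPKM against 0.228, 0.219 and 1.91 RPKM. The MLL-AF1p libraries held 0.111, 0.417 and 0.167 RPKM against 0.141, 0.140 and 0.0760 RPKM. Treated MLL-AF9 libraries lay above their controls without overlap, MLL-AF6 MI-2-2 replicate 3 stood apart from its group, and the MLL-AF1p groups overlapped. In a fit with no filter the log2 fold change was 1.09 in MLL-AF9 (limma, adjusted p = 0.0397), 0.65 in MLL-AF6 (0.249) and -0.22 in MLL-AF1p (0.967). By RPKM, Ptgs1 exceeded Ptgs2 in all 18 libraries.

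Hpgds encodes hematopoietic prostaglandin D synthase, the glutathione-dependent enzyme that makes prostaglandin D2 in mast cells, macrophages and some T cells. It was near the floor in untreated cells and rose in all constructs. In MLL-AF6, DMSO libraries held 0.290, 0.439 and 0.195 RPKM and MI-2-2 libraries 20.2, 19.0 and 16.5 RPKM. In MLL-AF9 it went from 0.232, 0.207 and 0.146 RPKM to 1.32, 2.19 and 1.64 RPKM. In MLL-AF1p it went from 0.102, 0.136 and 0.149 RPKM to 1.44, 1.78 and 1.23 RPKM. All treated libraries lay above all controls, and the MLL-AF6 treated libraries lay above every other library. The counts behind the DMSO values were small, 14 to 41 reads per library, while the treated MLL-AF6 libraries had 1381 to 2052.

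On the log2(RPKM + 0.5) scale Hpgds rose by 4.57 ± 0.15 (SE) in MLL-AF6 against 1.66 ± 0.15 in MLL-AF9 and 1.65 ± 0.15 in MLL-AF1p (limma, adjusted p = 7.11e-13, 1.32e-07 and 3.21e-07). The MLL-AF6 response exceeded that of MLL-AF9 by 2.91 (95% interval 2.47 to 3.35, adjusted p = 1.14e-07) and that of MLL-AF1p by as much, with MLL-AF1p minus MLL-AF6 at -2.92 (-3.36 to -2.48, adjusted p = 5.28e-07). MLL-AF1p and MLL-AF9 did not differ at the threshold (-0.01, interval -0.45 to 0.43). The size moved with the setting: over the alternatives the log2 rise was 1.17 to 3.12 for MLL-AF9, 1.13 to 3.50 for MLL-AF1p and 3.91 to 5.96 for MLL-AF6, each past the threshold. The lower end of each range came with a pseudocount of 1 and the upper end from voom on the recovered reads. Under DMSO no pair of constructs differed at the threshold. MLL-AF1p against MLL-AF6 came nearest (-0.35, adjusted p = 0.0546) and passed under several alternatives, such as voom (-1.20, 0.0202) and a pseudocount of 0.1 (-0.80, 0.00734). Of 8 mast cell markers, Tpsb2, Tpsab1, Cma1 and Fcer1a were listed at 0 in all 18 libraries and Cpa3 was at most 0.0480 RPKM. A listed 0 need not mean no expression, since Akr1b3, a widely expressed aldose reductase, was also listed at 0 in all 18. The sum of the 8 was 0.944 to 8.10 RPKM in MLL-AF6 DMSO libraries and 0.526 to 1.98 RPKM with MI-2-2, most of it Hdc. Of the 7 macrophage genes, whose sums are given above, Mrc1 was at 32.3 to 40.2 RPKM in treated MLL-AF6 libraries, 2.53 to 5.33 RPKM in treated MLL-AF9, 9.31 to 11.2 RPKM in treated MLL-AF1p and at most 0.244 RPKM under DMSO. Csf1r, the receptor of macrophage colony-stimulating factor, was at 97.3, 56.8 and 87.6 RPKM in treated MLL-AF9 libraries and at 60.5, 35.9 and 66.1 RPKM in treated MLL-AF6, and C1qa was at most 0.0435 RPKM in any library. The part of such cells in the Hpgds result was not tested.

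Ptges encodes the inducible, membrane-bound prostaglandin E synthase. Its level was low throughout and rose in all constructs. In MLL-AF9 it went from 0.419, 0.998 and 0.556 RPKM to 2.13, 2.71 and 2.42 RPKM. In MLL-AF1p it went from 0.793, 0.872 and 0.992 RPKM to 2.59, 2.64 and 2.53 RPKM. In MLL-AF6, whose controls were already the highest, it went from 1.65, 1.36 and 1.49 RPKM to 1.87, 1.98 and 2.95 RPKM. No group overlapped its own control, and the treated libraries of the 3 constructs all lay between 1.87 and 2.95 RPKM. The rise was 2.57-fold in MLL-AF9, 2.23-fold in MLL-AF1p and 1.37-fold in MLL-AF6 (limma, adjusted p = 3.74e-06, 3.64e-05 and 0.0269).

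The MLL-AF6 call for Ptges rested on few libraries. Without MI-2-2 replicate 3 it was 0.28 on the log2 scale (limma, adjusted p = 0.155), without DMSO replicate 2 or 3 the adjusted p was 0.0809 or 0.0606, and without filtering or with the MLL-AF6 groups alone 0.0666 or 0.0525. The response in MLL-AF6 was smaller than in MLL-AF9 by 0.91 ± 0.23 (SE, log2; adjusted p = 0.00734). MLL-AF1p exceeded MLL-AF6 by 0.71 ± 0.23 (adjusted p = 0.0289), which missed the threshold without filtering (adjusted p = 0.0718) and without any 1 of 9 libraries, with adjusted p up to 0.0756. Under DMSO, Ptges was higher in MLL-AF6 than in MLL-AF9 (0.82, adjusted p = 0.000579) and lower in MLL-AF1p than in MLL-AF6 (-0.53, adjusted p = 0.0129).

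**Figure D2:**
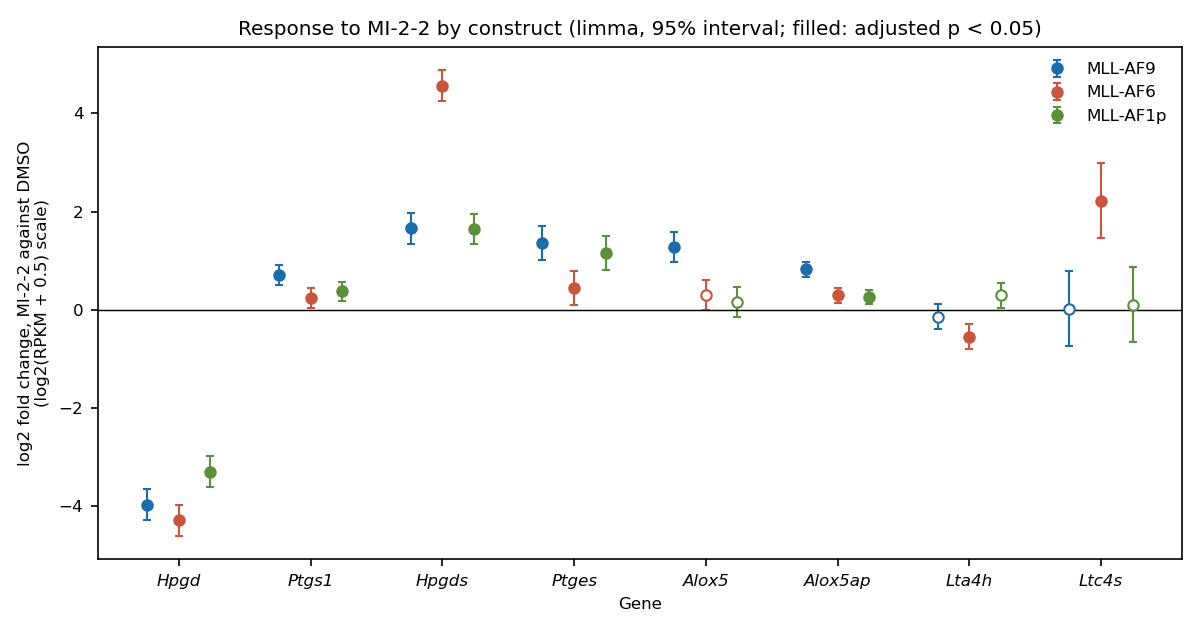
Log2 fold change of the 8 tested enzyme genes, MI-2-2 against DMSO, for the 3 constructs, as limma estimates with 95% intervals; filled points have an adjusted p under 0.05. Hpgd lies between -4.29 and -3.30, Hpgds and Ltc4s lie highest in MLL-AF6, and Alox5 lies highest in MLL-AF9.

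In the leukotriene branch, Alox5 encodes 5-lipoxygenase, the enzyme that commits arachidonate to leukotrienes. It rose in MLL-AF9, from 22.6, 36.5 and 34.4 RPKM to 66.3, 88.9 and 71.1 RPKM. In MLL-AF6 the values were 31.5, 34.8 and 31.1 RPKM under DMSO and 36.2, 41.1 and 42.9 RPKM with MI-2-2. In MLL-AF1p they were 28.9, 27.6 and 29.6 RPKM and 32.2, 32.5 and 31.7 RPKM. No group overlapped its own control in any construct, but the gaps in MLL-AF6 and MLL-AF1p were small. The rise was 2.43-fold in MLL-AF9 (limma, adjusted p = 1.56e-06). The log2 fold change was 0.30 in MLL-AF6 (adjusted p = 0.0825) and 0.16 in MLL-AF1p (0.369).

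Which Alox5 calls passed depended on the setting outside MLL-AF9. With the spread taken from the groups compared alone, MLL-AF6 had an adjusted p of 0.0233 and MLL-AF1p one of 0.0114. In MLL-AF6 it was also under the threshold with median centring (0.0353), quantile normalization (0.0257) and without MLL-AF9 DMSO replicate 1 (0.011), the lowest Alox5 library. The difference between constructs passed under every alternative run: MLL-AF6 responded less than MLL-AF9 by 0.98 (limma, adjusted p = 0.00177) and MLL-AF1p responded less than MLL-AF9 by 1.12 (0.000621). MLL-AF1p and MLL-AF6 did not differ at the threshold (-0.14, 95% interval -0.56 to 0.29). Under DMSO no pair of constructs differed at the threshold, with log2 differences of 0.09, -0.09 and -0.17 and adjusted p of 0.319 or more. Without MLL-AF9 DMSO replicate 1, Alox5 was lower in MLL-AF1p than in MLL-AF9 (-0.30, adjusted p = 0.0185).

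Alox5ap encodes the 5-lipoxygenase activating protein, which hands arachidonate to the lipoxygenase at the nuclear membrane. In MLL-AF9 it went from 285, 302 and 312 RPKM to 501, 539 and 550.1 RPKM. In MLL-AF6 it went from 496, 398 and 440.0 RPKM to 554, 513 and 569 RPKM. In MLL-AF1p it went from 363, 369 and 379 RPKM to 435, 451 and 443 RPKM. Every treated library lay above every control of its construct. The rise was 1.77-fold in MLL-AF9, 1.23-fold in MLL-AF6 and 1.20-fold in MLL-AF1p (limma, adjusted p = 1.1e-07, 0.00224 and 0.00783). It was larger in MLL-AF9 than in MLL-AF6 by 0.52 ± 0.10 (SE, log2; adjusted p = 0.00118) and than in MLL-AF1p by 0.56 ± 0.10 (adjusted p = 0.000637).

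With Hpgd reduced, Alox5ap had the highest RPKM of the 10 genes in all 9 MI-2-2 libraries, ahead of Lta4h. Untreated levels of Alox5ap ran in the order MLL-AF6, MLL-AF1p, MLL-AF9, and each neighbouring pair differed: MLL-AF1p was below MLL-AF6 by 0.26 and above MLL-AF9 by 0.31 on the log2 scale (limma, adjusted p = 0.00666 and 0.00147). The first of these missed the threshold with the DMSO groups compared fitted alone (adjusted p = 0.0521).

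Alox15 encodes 12/15-lipoxygenase, a marker of resident macrophages and eosinophils. It was at 0.00843 to 0.315 RPKM in the 18 libraries, from 1 to 17 reads, and was tested only in the fit with no filter, where no construct gave an adjusted p under 0.237 for treatment. A response of this gene was not detectable at this depth.

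Lta4h encodes leukotriene A4 hydrolase, the step to leukotriene B4. Its response differed between constructs. In MLL-AF6 it fell from 271, 318 and 309 RPKM to 197, 223 and 193 RPKM, with no overlap. In MLL-AF9 the DMSO values of 216, 249 and 225 RPKM overlapped the MI-2-2 values of 192, 225 and 210.2 RPKM. In MLL-AF1p the DMSO libraries held 382, 259 and 373 RPKM, below the 409, 413 and 402 RPKM of the treated ones. MLL-AF1p DMSO replicate 2 stood apart from the rest of its group. For MLL-AF6 the log2 fold change was -0.55 (limma, adjusted p = 0.00115), for MLL-AF9 -0.14 (0.344) and for MLL-AF1p 0.29 (0.0592).

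The difference of the Lta4h response between MLL-AF1p and MLL-AF6 was 0.84 ± 0.17 (SE, log2; limma, adjusted p = 0.00176). The MLL-AF1p value rested on the odd control: without DMSO replicate 1 or 3 it was 0.39 or 0.37 (adjusted p = 0.0238 or 0.0358), and over the libraries left out it ran down to 0.11. With median centring it was 0.33 (adjusted p = 0.0396). Under DMSO, Lta4h was higher in MLL-AF6 and in MLL-AF1p than in MLL-AF9, by 0.38 and 0.54 (adjusted p = 0.0148 and 0.00112), the first missing the threshold without MLL-AF6 DMSO replicate 2 (adjusted p = 0.0523). Those 2 did not differ from each other at the threshold (0.16, adjusted p = 0.294). Without MLL-AF1p DMSO replicate 2 that last difference was 0.34 (adjusted p = 0.00685). In RPKM, Lta4h exceeded Alox5 6.56 to 13.2 times in the DMSO libraries, 2.53 to 2.95 times in treated MLL-AF9, 4.50 to 5.43 times in treated MLL-AF6 and 12.7 times in treated MLL-AF1p.

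Ltc4s encodes leukotriene C4 synthase, which conjugates leukotriene A4 with glutathione. It was the enzyme gene that set the untreated constructs furthest apart. The MLL-AF9 DMSO libraries held 19.4, 10.2 and 13.0 RPKM, the MLL-AF6 libraries 2.01, 0.656 and 1.09 RPKM and the MLL-AF1p libraries 0.779, 0.963 and 0.931 RPKM. MLL-AF9 lay above both others without overlap. On the log2 scale MLL-AF6 minus MLL-AF9 was -3.10 ± 0.36 (SE) and MLL-AF1p minus MLL-AF9 was -3.36 ± 0.36 (limma, adjusted p = 3.33e-06 and 9.88e-07), while MLL-AF1p and MLL-AF6 did not differ at the threshold (-0.26, 95% interval -1.02 to 0.50).

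With MI-2-2, Ltc4s rose in MLL-AF6 to 11.6, 3.22 and 9.87 RPKM, a 4.67-fold rise (limma, adjusted p = 8.62e-05) with no overlap. In MLL-AF9 it was at 15.0, 11.2 and 15.8 RPKM and in MLL-AF1p at 0.925, 1.05 and 0.998 RPKM, log2 fold changes of 0.02 and 0.10 with adjusted p of 0.973 and 0.842. The response in MLL-AF6 exceeded that in MLL-AF9 by 2.21 ± 0.51 (SE, adjusted p = 0.0042), and MLL-AF1p minus MLL-AF6 was -2.12 ± 0.51 (adjusted p = 0.00563). Counts were modest, 11 to 36 reads in MLL-AF6 DMSO libraries and 42 to 211 with MI-2-2. Replicate 2 was the lowest of its group in all 4 MLL-AF9 and MLL-AF6 groups.

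Histidine decarboxylase, Hdc, which mast cells and basophils express, was lowest in replicate 2 of the same 4 groups. Hdc was at 52.0, 2.69 and 6.16 RPKM in MLL-AF9 DMSO libraries 1 to 3 and at 9.31, 2.74 and 8.63 RPKM with MI-2-2. In MLL-AF6 it was at 7.92, 0.769 and 1.51 RPKM under DMSO and at 1.87, 0.457 and 1.19 RPKM with MI-2-2, while Ltc4s rose there. Other markers of mast cells and basophils did not all share this replicate pattern. Mcpt8 was lowest in replicate 2 of MLL-AF9 MI-2-2 and MLL-AF6 DMSO. In MLL-AF9 DMSO libraries 1 to 3 it was at 17.8, 14.0 and 13.6 RPKM. Ms4a2, at most 0.264 RPKM in the 4 groups, was not lowest in replicate 2 of any of them. The part of such cells in the Ltc4s result was not tested. With single libraries left out in turn, the MLL-AF6 rise of Ltc4s ran from 1.90 to 2.75 on the log2 scale. Each group has its own mean in the fit, so leaving out a library of another construct cannot move this estimate. Of 4 basophil markers, Prss34 and Fcer1a were listed at 0 in all 18 libraries, and Mcpt8, at 12.5 to 27.0 RPKM in MLL-AF6 DMSO libraries, was at 5.08 to 6.30 RPKM with MI-2-2. The eosinophil genes summed to at most 2.72 RPKM, the T cell genes to at most 2.27 RPKM and the platelet genes to at most 6.41 RPKM in any library.

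All 8 tested enzyme genes responded differently between the constructs by an F test over the treatment effects (limma, adjusted p from 7.2e-08 for Hpgds to 0.0212 for Ptgs1), beside 52.8% of all genes tested. The largest estimate was in MLL-AF9 for Ptgs1, Ptges, Alox5 and Alox5ap and in MLL-AF6 for Hpgd, Hpgds, Lta4h and Ltc4s. Pair by pair, the response of MLL-AF6 minus MLL-AF9 passed for 6 of the 8 genes, 2 higher and 4 lower, beside 33.1% of all genes (9.02% higher, 24.0% lower). MLL-AF1p minus MLL-AF9 passed for 3, 1 higher and 2 lower, beside 35.1% (13.6% higher, 21.4% lower), and MLL-AF1p minus MLL-AF6 for 5, 3 higher and 2 lower, beside 31.1% (19.5% higher, 11.6% lower). Both pairs with MLL-AF6 share its libraries, and so for the other constructs. Under DMSO the 8 genes gave 4 higher and 1 lower calls in MLL-AF6 against MLL-AF9, beside 53.6% of all genes (29.1% higher, 24.5% lower). They gave 2 higher and 1 lower in MLL-AF1p against MLL-AF9, beside 65.1% (36.5% higher, 28.6% lower), and 4 lower in MLL-AF1p against MLL-AF6, beside 52.5% (28.8% higher, 23.7% lower). The treatment comparisons and the DMSO comparisons share the DMSO libraries.

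Around these enzymes, 51 further genes of the pathway were listed in 7 groups, and 29 passed the filter. Of the 29, 12 rose and 7 fell in MLL-AF9, 14 rose and 9 fell in MLL-AF6, and 10 rose and 9 fell in MLL-AF1p. The share of all tested genes that rose was 28.5% for MLL-AF9, 18% for MLL-AF6 and 19.1% for MLL-AF1p, and the share that fell was 27.9%, 38.9% and 26.3%. Their median log2 fold change was 0.16, 0.17 and -0.08, beside the medians over all genes given above. Fpr2, described below, had the largest change of the 29 in each construct. It reached 1 RPKM only in the 9 MI-2-2 libraries, and Ptgds only in 6 DMSO libraries. Each passed the filter only through groups where it was high, so its part in these counts was largely set by the filter. Ltb4r1, the high-affinity leukotriene B4 receptor, went from 5.33, 22.1 and 11.2 RPKM to 40.7, 55.0 and 45.8 RPKM in MLL-AF9, a log2 rise of 2.03, and rose by 2.49 in MLL-AF6 and 1.58 in MLL-AF1p (limma, adjusted p = 0.000295, 4.84e-05 and 0.00316). Fpr2, a formyl peptide receptor that also binds lipoxin A4, was at most 0.314 RPKM in the DMSO libraries and rose by 5.36, 3.85 and 3.41 (adjusted p = 6.19e-11, 3.01e-09 and 2.87e-08). It had 0 to 1 reads in the MLL-AF9 DMSO libraries, and over the alternatives its log2 rise was 4.41 to 9.75 in MLL-AF9, 3.14 to 5.65 in MLL-AF6 and 2.76 to 4.91 in MLL-AF1p. Cysltr1, a cysteinyl leukotriene receptor, fell in MLL-AF1p (-0.47, adjusted p = 0.0379) and was at 0.33 and -0.11 in MLL-AF9 and MLL-AF6 (adjusted p = 0.126 and 0.618). The MLL-AF1p call was lost without filtering (adjusted p = 0.0933), with median centring (0.0535), with quantile normalization (0.068) and without single libraries (up to 0.114).

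**Figure D3:**
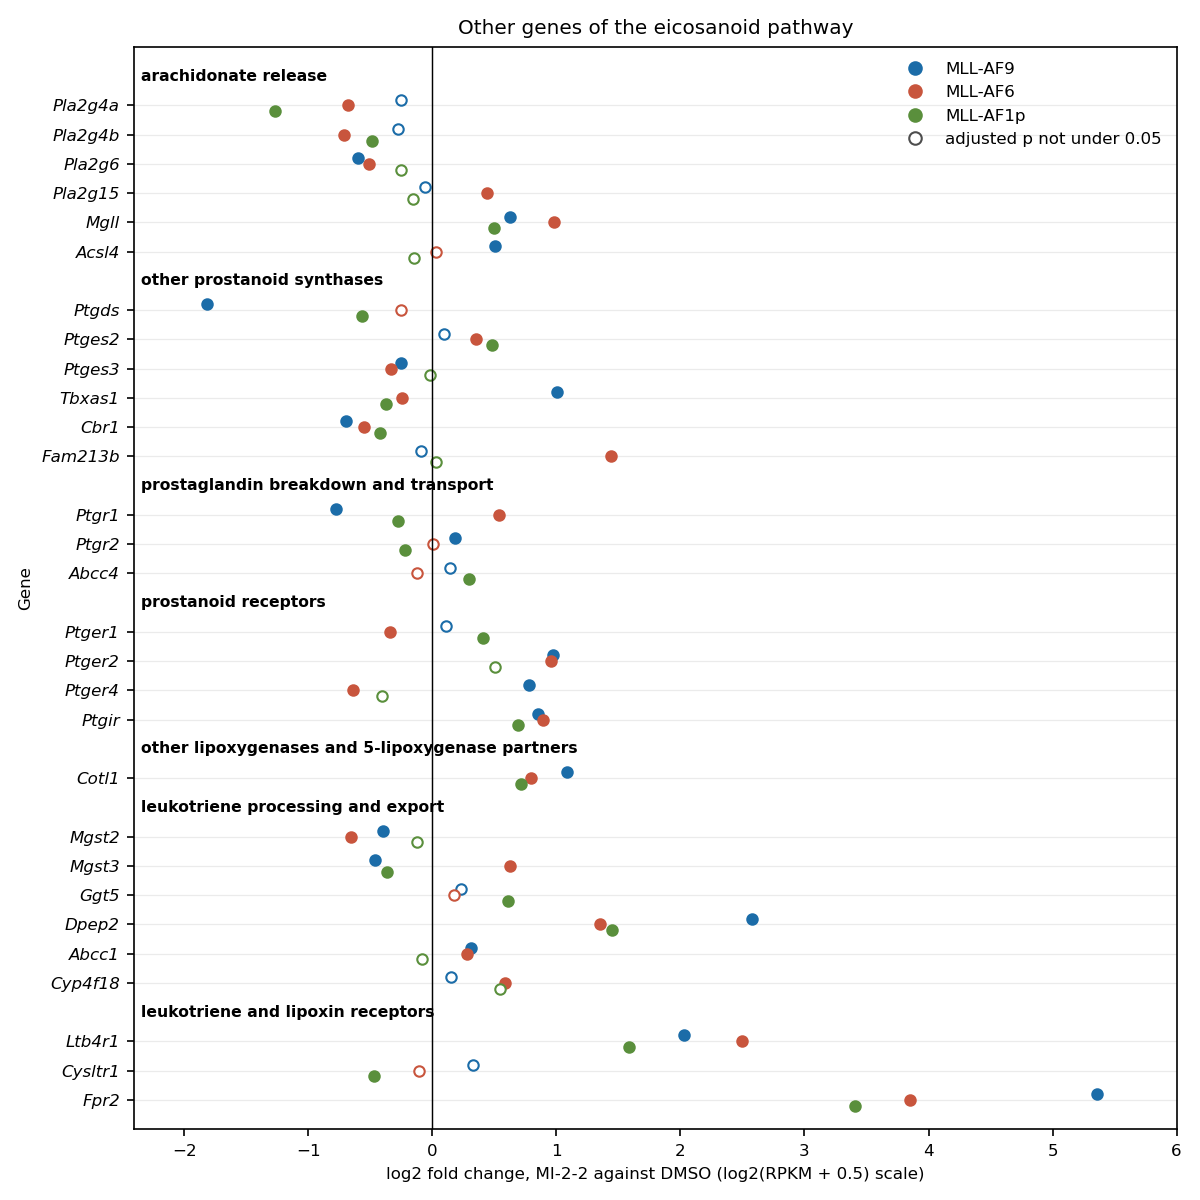
Log2 fold change, MI-2-2 against DMSO, of the 29 further pathway genes that passed the filter, grouped by role, with 1 point per construct; filled points have an adjusted p under 0.05. Fpr2 lies furthest to the right in each construct, and Ptgds in MLL-AF9 furthest to the left at -1.82.

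Of the 6 genes of leukotriene processing and export, 2 rose and 2 fell in MLL-AF9, 4 rose and 1 fell in MLL-AF6, and 2 rose and 1 fell in MLL-AF1p, beside 56.4%, 57.0% and 45.4% of all genes called in either direction. Dpep2, a dipeptidase that converts leukotriene D4 to E4, rose in all 3, by 2.57, 1.35 and 1.45 on the log2 scale in MLL-AF9, MLL-AF6 and MLL-AF1p (limma, adjusted p = 1.26e-07, 0.000115 and 9.8e-05), though its exons overlap other genes by up to 338 bases. Mgst3, a microsomal glutathione transferase, rose in MLL-AF6 (0.63) and fell in MLL-AF9 (-0.46) and MLL-AF1p (-0.36, adjusted p = 0.000266, 0.00286 and 0.0182). The MLL-AF1p fall missed the threshold without MLL-AF1p DMSO replicate 1 (adjusted p = 0.0905) or MI-2-2 replicate 2 (0.0513) or 3 (0.0596). Mgst2, which can also make leukotriene C4, fell by 0.40 with MLL-AF9 and by 0.66 with MLL-AF6 (adjusted p = 0.00529 and 9.38e-05). Cyp4f18, a leukotriene B4 hydroxylase, rose in MLL-AF6 (0.59, adjusted p = 0.0334) and was at 0.54 in MLL-AF1p (0.0564). The MLL-AF6 call ended without filtering (adjusted p = 0.09), with only the MLL-AF6 groups in the fit (0.0801) and without single libraries (up to 0.158). Cotl1, a small protein that binds 5-lipoxygenase, rose by 1.08, 0.79 and 0.72 (adjusted p = 1.69e-08, 6.58e-07 and 3.35e-06).

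Of 6 genes that free arachidonate, 2 rose and 1 fell in MLL-AF9, 2 rose and 3 fell in MLL-AF6, and 1 rose and 2 fell in MLL-AF1p (all genes 56.4%, 57.0% and 45.4% called). Pla2g4a, the cytosolic phospholipase A2 that supplies both branches, went from 48.6, 57.8 and 50.3 RPKM to 21.3, 22.1 and 20.8 RPKM in MLL-AF1p (-1.26, limma, adjusted p = 2.1e-05). It fell by 0.68 in MLL-AF6 (adjusted p = 0.00276) and was at -0.25 in MLL-AF9 (adjusted p = 0.216). Mgll, monoacylglycerol lipase, rose in all 3 constructs by 0.63, 0.98 and 0.50 (adjusted p = 0.000182, 2.23e-06 and 0.00188). Pla2g6, a calcium-independent phospholipase A2, fell by 0.60 with MLL-AF9 and by 0.51 with MLL-AF6 (adjusted p = 0.00223 and 0.00689). Pla2g4b was lower in MLL-AF6 and MLL-AF1p (-0.71 and -0.48, adjusted p = 0.000235 and 0.00613), but its exons overlap those of neighbouring genes by up to 1636 bases, so its reads may be mixed with theirs.

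Of 6 other prostanoid synthase genes, 1 rose and 3 fell in MLL-AF9, 2 rose and 3 fell in MLL-AF6, and 1 rose and 3 fell in MLL-AF1p (56.4%, 57.0% and 45.4% of all genes called). Ptgds, the lipocalin-type prostaglandin D synthase, moved opposite to Hpgds: it fell from 1.94, 1.85 and 2.16 RPKM to 0.268, 0.173 and 0.174 RPKM in MLL-AF9 (-1.82, limma, adjusted p = 1.9e-09) and by 0.57 in MLL-AF1p (adjusted p = 0.000604). The treated MLL-AF9 libraries held 3 to 6 reads of Ptgds, and over the alternatives the MLL-AF9 value was -3.15 to -1.31. In MLL-AF6 it was at most 0.204 RPKM in either arm. Tbxas1, thromboxane synthase, rose by 1.00 in MLL-AF9 and fell by 0.25 in MLL-AF6 and 0.38 in MLL-AF1p (adjusted p = 1.65e-08, 0.00951 and 0.000694), and the MLL-AF6 fall missed the threshold with median centring (adjusted p = 0.0933) and quantile normalization (0.0683). Cbr1, carbonyl reductase, fell in all 3 constructs (-0.70, -0.55 and -0.42, adjusted p = 0.000113, 0.000962 and 0.00862). Fam213b, a prostaglandin F synthase, was listed at or near 0 in MLL-AF9, at most 0.0569 RPKM, and rose in MLL-AF6 from 2.17, 4.73 and 3.25 RPKM to 9.47, 10.2 and 9.26 RPKM (1.44, adjusted p = 2e-06).

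Among 3 genes of prostaglandin breakdown and transport beside Hpgd, Ptgr1, a reductase that acts after the dehydrogenase, fell in MLL-AF9 (-0.78, limma, adjusted p = 1.62e-05), rose in MLL-AF6 (0.54, adjusted p = 0.000515) and was at -0.27 in MLL-AF1p. The adjusted p of 0.049 in MLL-AF1p did not hold without filtering (0.106), with median centring (0.103), with a constant prior variance (0.0557) or without single libraries (up to 0.15). Abcc4, an exporter of prostaglandin E2, rose in MLL-AF1p (0.30, adjusted p = 0.00207). Ptgr2, another prostaglandin reductase, rose in MLL-AF9 (0.18, adjusted p = 0.0483) and fell in MLL-AF1p (-0.22, adjusted p = 0.0261). Neither call held with median centring (adjusted p = 0.231 and 0.0553) or without single libraries (up to 0.165 and 0.0867). The exons of Ptgr2 overlap those of Gm47484 on the other strand by 1896 bases, so reads of the pair may be mixed. Of 4 prostanoid receptor genes, 3 rose in MLL-AF9, 2 rose and 2 fell in MLL-AF6, and 2 rose in MLL-AF1p (all genes 56.4%, 57.0% and 45.4% called). Ptgir, the prostacyclin receptor, rose in all 3 constructs (0.85, 0.89 and 0.69, adjusted p = 1.25e-05, 9.08e-06 and 0.000172). Ptger2, a receptor of prostaglandin E2, rose in MLL-AF9 and MLL-AF6 (0.97 and 0.96, adjusted p = 0.000956 and 0.00108). Ptger4, another receptor of prostaglandin E2, rose in MLL-AF9 (0.78, adjusted p = 0.000777), where it stayed under 1 RPKM. The MLL-AF9 DMSO libraries held 14 to 26 reads of Ptger4, and over the alternatives the rise was 0.45 to 1.91. In MLL-AF6 Ptger4 fell from 5.04, 2.93 and 4.26 RPKM to 2.38, 2.15 and 2.65 RPKM (-0.64, adjusted p = 0.00367). Its exons overlap those of genes on the other strand by up to 872 bases.

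By Pearson r of log2(RPKM + 0.5) over the 18 libraries, which share groups and treatment, the genes most like each enzyme were the following. Mylk (r = 0.993) and Fut8 (r = 0.992) followed Hpgd, and Arhgap9 (0.952) and Nfkbid (0.942) followed Ptgs1. Rragd (0.989) and Maf (0.987) followed Hpgds, and Gpr84 (0.954) and Myo1d (0.946) followed Ptges. Alox5 was followed by Dennd4b (0.965) and Arhgap27 (0.955), and Alox5ap by Cnr2 (0.978) and Lilrb4 (0.972). Lta4h was followed by Bub3 (0.924) and Tfrc (0.917), and Ltc4s by Anxa6 (0.969) and Padi2 (0.959). Mylk went from 27.8 to 30.7 RPKM under DMSO to 2.26 to 3.09 RPKM in MLL-AF6, beside the fall of Hpgd there. Maf went from 0.0363 to 0.128 RPKM to 5.89 to 7.81 RPKM in MLL-AF6, beside the rise of Hpgds, and reached 0.697 to 1.65 RPKM in treated MLL-AF9 and 1.01 to 1.29 RPKM in treated MLL-AF1p. Rragd reached 1 RPKM only in treated MLL-AF6 libraries, at 1.34 to 1.79 RPKM, and passed the filter only through them. It was at most 0.529 RPKM in the other groups, so its r rests largely on that group.

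**Figure D4:**
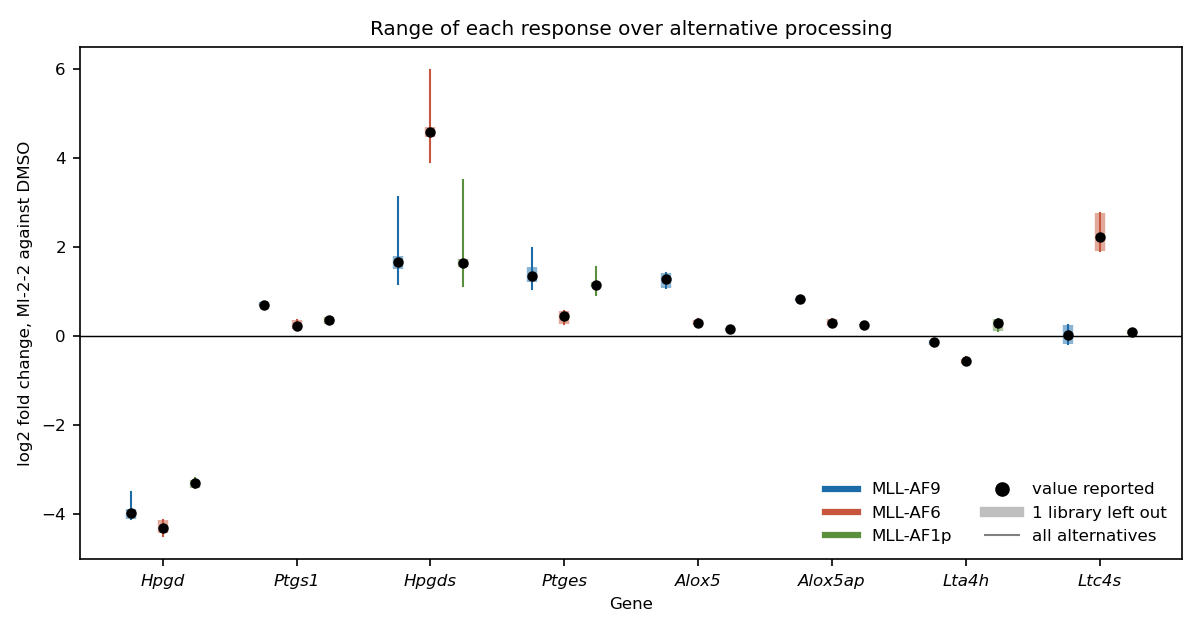
Log2 fold change of each enzyme gene, MI-2-2 against DMSO, under all alternatives (thin line) and with 1 library left out (thick bar), with the reported value as a black point. Hpgd stays at or below -3.19 and Hpgds at or above 1.13 in every construct, while Ltc4s in MLL-AF9 runs from -0.19 to 0.26 across 0.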

How the data were processed

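PolyA RNA of 18 libraries was given as RPKM in 1 table that the authors deposited, with gene lengths beside it (per the file headers). Tools named in the submitters' processing notes are Bowtie2 2.0.0.7, CASAVA 1.8.2, edgeR and HTSeq, with the mm9 build, and no roles are stated. Per the labels' protocols, libraries were made with an unstranded kit, so reads of overlapping antisense genes (Ptgs1, Alox5ap and Ltc4s have predicted ones) cannot be told apart by strand. Exon overlaps were taken from a GENCODE annotation. The annotation the submitters counted on, and their handling of shared reads, are not known, so mixing of reads is possible but not shown. Mgll, Tbxas1, Ptger2 and Cyp4f18 also overlap genes on the other strand, by up to 246 bases. RPKM times length summed to 1000000 per library, and 100% of values were whole reads within 0.05, which gave the depth.

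Values of log2(RPKM + 0.5) were fitted with limma 3.58.1 (R 4.3.3), using 6 group means, 12 residual degrees of freedom and a trended prior variance. A run on simulated counts, with few genes changed in a single group, checked the code only. These data hold far more changes. The low-value filter, pseudocount (0.1 and 1), scaling, prior, replicate block, libraries left out, groups fitted and voom on the recovered reads were varied. Voom called 6206, 6320 and 5791 genes in MLL-AF9, MLL-AF6 and MLL-AF1p. Replicate pairs of a group differed beyond sampling noise, and all libraries were kept. Figures used matplotlib 3.10.9.

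The enzyme genes and all lists were chosen with earlier results of these data known. Named pathway genes are up to 4 per list with the largest mean absolute log2 fold change among those called in at least 1 construct, with 1 of them not reported here. The likest genes are the 2 highest by Pearson r, without predicted genes. Motifs were chosen from general knowledge of myeloid promoters. The marker lists not described in the report ranged, as summed RPKM, from 0.203 to 1.51 (erythroid), 0.109 to 2.89 (B cell) and 4.59 to 84.0 (fibroblast and endothelial, nearly all of it Pecam1).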

Additional observations from a re-analysis of the deposited data

Results flagged for a closer look

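The response to MI-2-2 differed between the 3 constructs for each of the 8 tested enzyme genes, by a moderated F test in limma adjusted over 11238 genes, of which 52.8% differed. The adjusted p was 0.00325 for Hpgd, whose fall was smallest in MLL-AF1p, and 7.2e-08 for Hpgds, whose rise was largest in MLL-AF6. It was 0.0212 for Ptgs1 and 0.00941 for Ptges, both with their largest estimated rise in MLL-AF9. For these 2 genes MLL-AF1p did not differ from MLL-AF9 in response at the threshold (limma, adjusted p = 0.0638 and 0.52). The F test gave an adjusted p of 0.000576 for Alox5 and 0.000496 for Alox5ap, again with the largest rise in MLL-AF9. For Lta4h it was 0.00292, with a fall that passed in MLL-AF6, and for Ltc4s 0.00306, with a rise in MLL-AF6 alone. The Ptgs1 value missed the threshold with median centring (0.153) and without MLL-AF9 MI-2-2 replicate 2 (0.0558) or 3 (0.0519). Summed macrophage and neutrophil markers also rose by different amounts in the 3 constructs, but single genes did not all order the constructs as the sums did. The neutrophil gene Mmp8 averaged 148, 102 and 50.2 RPKM in treated MLL-AF9, MLL-AF6 and MLL-AF1p, where the neutrophil sum was highest in MLL-AF1p. The part of these markers in the differences between constructs was not tested.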

How the results depend on the processing

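Of 2128 values of the enzyme genes under alternatives (80 tests), 2018 kept direction and call, 38 newly passed, 49 no longer passed and 23 changed sign. The count of enzyme genes called in MLL-AF1p against MLL-AF9 under DMSO went from 3 to 5 with quantile normalization. No other count of calls moved by over 1.5 times. The causes were not tested. Sign changes, here on the log2 scale, were all in values that had not passed. Ltc4s in MLL-AF9 was -0.0632 with median centring, -0.0547 with quantile normalization and -0.1873 to 0.2584 without single libraries. The Hpgds response of MLL-AF1p minus MLL-AF9 was 0.1725 with a pseudocount of 0.1, 0.1116 with median centring, 0.3139 with quantile normalization, 0.3838 by voom and -0.1443 to 0.1397 without single libraries. With quantile normalization, Ptges in MLL-AF1p minus MLL-AF9 was 0.0299, and Alox5ap in MLL-AF1p minus MLL-AF6 was 0.0082. Without single libraries the latter ran from -0.1208 to 0.0373, and the Ltc4s response of MLL-AF1p minus MLL-AF9 from -0.1575 to 0.2881. Under DMSO, Alox5 in MLL-AF6 against MLL-AF9 ran so from -0.1255 to 0.2146, in MLL-AF1p against MLL-AF9 from -0.2989 to 0.0412, and Ltc4s from -0.5221 to 0.0365 in MLL-AF1p against MLL-AF6. For treatment, Ptgr2 in MLL-AF6 ran from -0.0465 to 0.0923, Cysltr1 in MLL-AF6 from -0.2511 to 0.0508 and Cyp4f18 in MLL-AF9 from -0.1123 to 0.3413.

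Same-numbered DMSO and MI-2-2 libraries correlated in their deviations from group means at 0.281, 0.46 and 0.014 (MLL-AF9), 0.493, 0.557 and 0.001 (MLL-AF6), and 0.098, 0.21 and 0.026 (MLL-AF1p). Not every library correlated best with its own number, and the labels do not say that a number is shared. With a replicate block, 6, 8 and 5 enzyme genes were called for treatment in those constructs, against 6, 7 and 5 without it, the addition being Alox5 in MLL-AF6 (limma, adjusted p = 0.0402). It also brought past the threshold the Hpgd response of MLL-AF6 minus MLL-AF9 (0.0324), Hpgd in MLL-AF1p against MLL-AF9 under DMSO (0.00601), the Ptgs1 response of MLL-AF1p minus MLL-AF9 (0.0496), Hpgds in MLL-AF1p against MLL-AF6 under DMSO (0.0224) and, for treatment, Ptger2 (0.0123), Ptger4 (0.00796) and Cyp4f18 (0.0413) in MLL-AF1p and Cysltr1 in MLL-AF9 (0.0309).

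Depth limits Ptgs2, Alox15, Hpgds and Fpr2 under DMSO, Ptger4 under DMSO in MLL-AF9, treated Ptgds in MLL-AF9 and Ltc4s outside MLL-AF9, which rest on few reads. PCR reads are not independent molecules, so read numbers cover counting error only.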

Other observations

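Hpgd was lowest in replicate 2 of all 6 groups: 1431 and 93.6 RPKM in MLL-AF9, 2563 and 106 RPKM in MLL-AF6, and 1765 and 189.7 RPKM in MLL-AF1p. Under DMSO, Ptgs2 was highest in replicate 2 of each construct, at 0.175, 0.323 and 0.417 RPKM. These patterns were seen in the values and not tested, and their source is not given in the labels.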
